A study of Mus musculus with 24 samples.

Results

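Mitosis and DNA replication genes were followed in mouse skeletal muscle as a set of 33 genes, 9 of them helicase, clamp and nucleotide genes of DNA replication and 24 grouped as mitosis genes. The 24 include cyclin E1 (Ccne1), which acts at the start of DNA replication and is counted there because it is listed with the other cyclins. They were taken by name from the array's gene names, which gave 60 probes of 56605 and 33 names of 37325. Total RNA of skeletal muscle came from 24 mice in 3 groups of 8. The STD_Cont mice were of the control lineage on the low fat control diet, the HFD_Cont mice were of the control lineage on a high fat diet, and the HFD_O3 mice were of the omega 3 lineage on a high fat diet. No omega 3 lineage group on the low fat diet was analysed here, so the lineages are compared on the high fat diet only. The sources used here do not give the muscle taken, the strain, sex and age of the mice, how long they were fed or what sets the omega 3 lineage apart.

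A cell that divides first copies its DNA and then separates the copies on a spindle. The Mcm2 to Mcm7 proteins form the ring-shaped helicase that is loaded at replication origins, Pcna is the clamp that holds polymerases on DNA, and Rrm2 and Tyms supply deoxynucleotides. Cyclins with Cdk1 drive entry into mitosis, Aurora and Polo kinases with their partners build and time the spindle, and Bub and Cenp proteins act at kinetochores. Muscle fibres are post-mitotic cells, so RNA of these genes in whole muscle can come from few dividing cells or from non-dividing cells that keep some of it. In whole muscle, fewer cells of a type and less RNA per cell cannot be told apart.

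The probes behind the 4 genes that the results turn on are shown by their opening 30 of 60 bases, 5′ to 3′, as the scanner files give them, with the probe's position on mm9. No letters stand out in these probes, so all are in lower case. Each is the only probe of its gene that passed the filter described below, except for Mcm3, which had 4.
Tpx2 probe, chr2:152719476-152719535, plus strand: cgccatgtttggaaacacacctgataacta
Aurka probe, chr2:172181734-172181793, minus strand: tgactcgggggtttctttttctgcatgtta
Mcm3 probe, chr1:20793159-20793218, minus strand: ccaagagtggctcaggcagatgacaaagtt
Mcm7 probe, chr5:138605925-138605984, minus strand: aggttaatacttctcggacacggatcacct

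Promoters of cell cycle genes are known for CCAAT boxes, bound by NF-Y, for E2F sites, and for the cell cycle homology region (CHR), an element through which the DREAM complex holds mitotic genes down in resting cells. RefSeq promoters on GRCm38.p6, 250 bases before to 50 after a start, were given for 28 of the 33 genes. Both strands were searched for the box CCAAT and for 2 CHR words, namely TTTGAA and also the variant TTCGAA. For E2F the search used TTGGCGC as well as the related TTCGCGC, and also the word TTCCCGC along with the word TTGCCGC. The second CHR word reads the same on both strands, and CCAAT read backwards (ATTGG) can overlap TTGGCGC. The CCAAT box was present in 24 of the 28 (85.7%), against 41.1% of the 27025 genes with a promoter given. A CHR word was present in 17 of 28 (60.7%), against 21.7% of all. By role, a CHR word was found in 15 of 20 mitosis genes and 2 of 8 replication genes. An E2F word was present in 8 of 28 (28.6%), against 10.9% of all, in 3 of the 20 mitosis and 5 of the 8 replication genes. Promoters of the 2 helicase genes that were lower in HFD_Cont, and of Cdk1 as a mitotic gene with all 3 kinds of word, are printed for the 250 bases before the start, minus strand, with matches in capitals.
Mcm3, chr1:20820313-20820562: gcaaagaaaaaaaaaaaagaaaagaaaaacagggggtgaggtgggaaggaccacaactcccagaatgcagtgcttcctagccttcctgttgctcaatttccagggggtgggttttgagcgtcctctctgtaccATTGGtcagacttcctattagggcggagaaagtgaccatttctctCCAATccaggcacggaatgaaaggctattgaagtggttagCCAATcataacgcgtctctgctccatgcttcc
Mcm7, chr5:138171884-138172133, 1 of its 2 starts: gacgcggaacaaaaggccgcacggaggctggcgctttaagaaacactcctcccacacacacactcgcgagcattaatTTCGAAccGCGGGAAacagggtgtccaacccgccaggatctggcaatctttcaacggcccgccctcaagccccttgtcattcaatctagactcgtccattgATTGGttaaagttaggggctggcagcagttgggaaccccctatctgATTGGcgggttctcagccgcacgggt
Cdk1, chr10:69352913-69353162: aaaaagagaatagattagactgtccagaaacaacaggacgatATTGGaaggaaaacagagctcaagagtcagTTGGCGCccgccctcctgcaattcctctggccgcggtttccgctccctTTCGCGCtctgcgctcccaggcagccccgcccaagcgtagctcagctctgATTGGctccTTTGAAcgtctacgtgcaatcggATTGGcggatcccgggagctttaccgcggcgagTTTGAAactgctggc
The Mcm3 stretch held 3 CCAAT boxes, all within 117 bases of the start. Its E2F word lay within or reached into the bases after the start, which are not shown. The Mcm7 stretch held 2 CCAAT boxes, a CHR word 168 to 173 bases before the start and an E2F word just beside it. The 250 bases before the other Mcm7 start, not printed, held a CCAAT box and an E2F word but no CHR word. The Cdk1 stretch held 3 CCAAT boxes, 2 CHR words and 2 E2F words. These matches describe letters and no binding was measured.

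All 24 arrays could be used, on 3 slides of 8 arrays. The share of spots marked well above background was 52 to 60.7% by array, the 75th percentile of the processed signal ran from 234 to 430, and no spot was saturated (0 spots). The number of arrays limits the precision. All 12 of the listed muscle fibre markers were measured, with 0 passing the test and a median change of 0.001 between HFD_Cont and STD_Cont. Myh7 and Tnnt1 were at -0.64 (SE 0.66) and -0.56 (SE 0.63), and the others from -0.045 to 0.062. The lymphocyte markers Cd3g and Cd79a were above background on 0 arrays. A level is given below as log2 of the processed signal over that array's 75th percentile, so 0 is the signal that 75% of probes stay under, and levels of different genes are not compared.

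Many of the genes were at or near background in this tissue. A gene was tested where 6 or more of the 8 arrays in any group had a probe that the software marked well above background. This held for 21 of the 33 genes (63.6%), beside 53.4% of all names on the array. Replication genes passed in 8 of 9 cases and mitosis genes in 13 of 24. Of the 33 genes, 14 were above background on all 24 arrays by at least 1 probe. These were Tpx2, Kif23, Ccne1, Aurka, Birc5, Mki67, the helicase genes Mcm2, Mcm3, Mcm4, Mcm6 and Mcm7, and Rrm2, Tyms and Pcna. Of the genes that passed, 18 did so in every group and 3 in only some of them.

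The 12 genes that did not pass included Cdk1, its main mitotic cyclins and all the checkpoint and kinetochore genes. Cdk1, the kinase that starts mitosis, was above background on 1 of 24 arrays, an HFD_Cont array. Ccnb1, cyclin B1, was above background on 7 of 24 arrays by any of its 4 probes, and Ccna2, cyclin A2, on 13. Of the 4 checkpoint and kinetochore genes, Bub1 was above background on 1 array, Bub1b on 2, Cenpe on 6 and Cenpf on 0. The Cenpe probe, for a kinetochore motor, read -4.63 to -1.57 in STD_Cont (median -3.84), -5.68 to -3.10 in HFD_Cont (median -4.50) and -5.54 to -3.78 in HFD_O3 (median -4.53), values mostly not well above background. Kif11, the motor that pushes spindle poles apart, was above background on 6 arrays, the spindle protein Nusap1 on 3, Aurora kinase B (Aurkb) on 5, and topoisomerase Top2a on 3. Of the helicase genes Mcm5 alone did not pass, with its probe above background on 4 STD_Cont, 3 HFD_Cont and 2 HFD_O3 arrays. Where a gene was above background on 0 arrays of a group and on some of another, the bound on the fold was under 1. This applied to Nusap1, Cdk1, Bub1 and Bub1b, and the rest of the 12 were left out by the filter alone. No fold between groups is given for these 12.

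The 3 genes that passed in only some groups were above background on the fewest arrays in HFD_O3. Ube2c, a ubiquitin-conjugating enzyme of the anaphase-promoting complex, was above background on 8 STD_Cont, 8 HFD_Cont and 5 HFD_O3 arrays. Plk1, Polo-like kinase 1, was above background on 7, 7 and 5 arrays in the same order, and Prc1, which bundles microtubules of the central spindle, on 5, 7 and 4. The fitted levels of these 3 genes did not pass the test in any comparison. Genes that pass in only some groups are dim in another by selection. The HFD_O3 arrays without the mark were 1, 2 and 6 for all 3 genes, and also 5 for Prc1. On HFD_O3 arrays 1, 2, 5 and 6 the share of all spots well above background was 53.01, 52.04, 53.7 and 52.55%. These shares lay toward the low end of the 52 to 60.7% over all arrays. HFD_Cont array 5, at 52.62%, had the mark for all 3 genes. STD_Cont array 4, at 52.17%, had it for Ube2c but not for Plk1 or Prc1. Whether the share of spots bears on these marks was not tested. Over all 33 genes, the number above background on an array was 20 to 27 in STD_Cont (median 22.5), 21 to 26 in HFD_Cont (median 23) and 16 to 27 in HFD_O3 (median 21), so the groups overlapped.

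**Figure D1:**
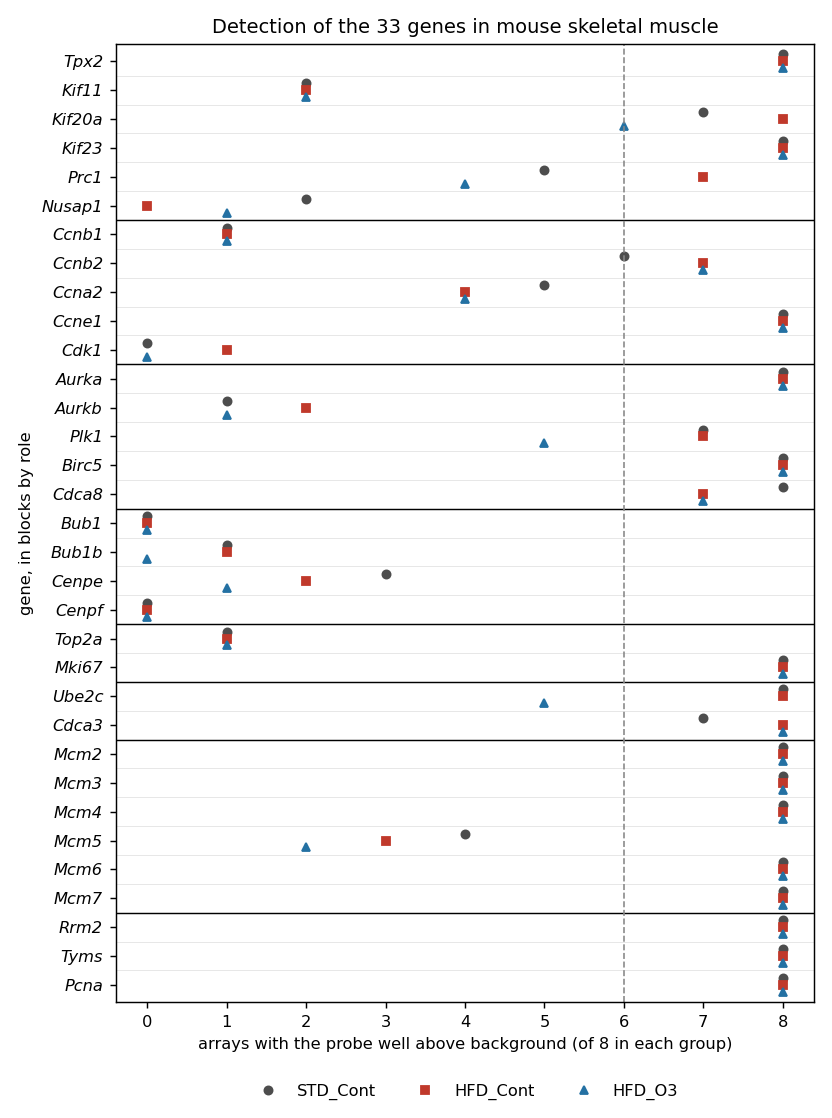
For each of the 33 genes (rows, in blocks by role), points give the number of arrays of 8 on which its probe was well above background, by group; the dashed line marks the 6 arrays needed for testing. Helicase, nucleotide and clamp genes other than Mcm5 sit at 8 in every group, while Cdk1, Bub1, Bub1b, Cenpf and Top2a sit at 0 or 1.

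HFD_Cont against STD_Cont compared the high fat with the low fat diet within the control lineage. Tpx2, a spindle assembly factor that activates Aurora kinase A, was higher in HFD_Cont by 1.04 on the log2 scale, 2.06-fold. The helicase genes Mcm3 and Mcm7 were lower, 1.23-fold and 1.24-fold. The other 18 tested genes did not pass. Thus 3 of 21 passed, where 2.91% of the 19937 names tested did, with 1 higher (1.43% of all names) and 2 lower (1.48% of all names). The median change over the 21 was -0.046, beside 0.002 over all names, with 8 genes positive and 13 negative (49.2% of all names were negative). At an unadjusted p under 0.05 stood 6 of 21, beside 16.6% of all names. Tests are limma's moderated test on all 24 arrays, two-sided, and p values were adjusted by Benjamini and Hochberg's method over the whole table, with 0.05 as the threshold.

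Tpx2 ran from -2.49 to -1.16 in STD_Cont (median -1.56), from -1.36 to 0.41 in HFD_Cont (median -0.61) and from -1.95 to -0.68 in HFD_O3 (median -1.38). Of the 8 HFD_Cont arrays, 7 lay above every STD_Cont array, and HFD_Cont array 3 alone lay below the highest STD_Cont array, number 6. All 8 HFD_Cont arrays were above the STD_Cont median. The change was 1.04 ± 0.22 (SE, 95% interval 0.59 to 1.50, n = 8 and 8, limma adjusted p = 0.0158). Within slides 1, 2 and 3 it was 1.04, 1.60 and 0.79. Every fit with 1 of the 24 arrays left out kept the call, at adjusted p of 0.00952 to 0.037. With normexp background correction the change was 0.64, and when slide and row were blocked together it was 1.07 at an adjusted p of 0.074, over a range of 0.00836 to 0.598 for all alternatives.

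The median change of the white adipocyte markers lay in the same direction as that of Tpx2. Single markers ran from -0.02 (SE 0.66) for Cfd to 1.79 (SE 0.98) for Adrb3, which was above background on 12 arrays. Of the 8 markers all were measured and 0 passed the test, with a median change of 0.91 between HFD_Cont and STD_Cont. Their summed level, relative to the array's 75th percentile, ran from 148 to 362 in STD_Cont, from 169 to 544 in HFD_Cont and from 149 to 375 in HFD_O3. The sum leaned on Fabp4, the brightest of the 8, with mean levels of 7.239 in STD_Cont and 7.395 in HFD_Cont, a change of 0.155. The highest Tpx2 level, 0.41 on HFD_Cont array 4, was on the array with the highest marker score, and the lowest, -2.49 on STD_Cont array 1, was on the STD_Cont array with the highest. With the marker score as a covariate the Tpx2 change was 1.01 (limma adjusted p = 0.0314). Without the 8 arrays of a score over 0.5 it was 0.78 (adjusted p = 0.475), a fit in which 0 of the 19937 names passed.

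The other spindle genes did not pass. Kif23, a motor of the central spindle, ran from -1.62 to -0.87 in STD_Cont (median -1.39), from -1.58 to 0.98 in HFD_Cont (median -1.45) and from -1.63 to -0.94 in HFD_O3 (median -1.18). Its mean difference was 0.33 ± 0.26 (SE), and 0.04 without HFD_Cont array 7, which lay at 0.98. Another HFD_Cont array lay at -0.49, and 5 of 8 HFD_Cont arrays lay below the STD_Cont median. Kif23 was read by 1 of its 4 probes, the others not passing the filter. Kif20a, a motor of cytokinesis, differed by -0.08 ± 0.13 and Prc1 by 0.08 ± 0.21.

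Among cyclins, Ccne1 and Ccnb2 were tested. Ccne1, cyclin E1, which acts at the start of DNA replication, ran from -2.47 to -1.91 in STD_Cont (median -2.14), from -2.47 to -1.65 in HFD_Cont (median -2.23) and from -2.43 to -1.72 in HFD_O3 (median -2.15). The groups lay over each other, with a change of -0.01 ± 0.11 and a 95% interval of -0.25 to 0.23. Ccnb2, cyclin B2, differed by 0.22 ± 0.16 (95% interval -0.12 to 0.55).

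Of the mitotic kinases and the chromosomal passenger complex, Aurka came closest to the threshold. Aurora kinase A matures centrosomes and is the kinase that Tpx2 activates. Its level ran from 1.29 to 2.22 in STD_Cont (median 1.83), from 1.83 to 2.72 in HFD_Cont (median 2.37) and from 0.93 to 2.35 in HFD_O3 (median 2.12). All 8 HFD_Cont arrays were above the STD_Cont median, yet the groups overlapped. STD_Cont held 4 arrays from 1.88 up and 3 from 1.29 to 1.31. The difference was 0.54 ± 0.19 (95% interval 0.14 to 0.94, limma adjusted p = 0.131), not past the threshold. It passed when HFD_O3 array 7, the lowest of its group, was left out of the shared fit (adjusted p = 0.0495, over 0.0395 to 0.935 for all alternatives), at a difference between HFD_Cont and STD_Cont that this array does not enter.

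Plk1, Birc5 and Cdca8 gave differences of -0.05 ± 0.15, -0.01 ± 0.17 and -0.20 ± 0.22. Birc5, survivin, and Cdca8, borealin, belong with Aurkb to the passenger complex that corrects chromosome attachment. Mki67, which coats mitotic chromosomes and is the usual label of cycling cells, ran from -3.16 to -1.92 in STD_Cont (median -2.76), from -3.54 to -2.48 in HFD_Cont (median -2.85) and from -3.18 to -2.29 in HFD_O3 (median -2.83). The 3 groups overlapped over most of their range, with a difference of -0.17 ± 0.17 and a 95% interval of -0.51 to 0.17. Ube2c differed by -0.12 ± 0.14. Cdca3, a gene of mitotic entry, ran from -3.46 to -2.37 in STD_Cont (median -2.81), from -2.93 to -2.42 in HFD_Cont (median -2.76) and from -3.48 to -2.58 in HFD_O3 (median -2.87). HFD_Cont lay within the STD_Cont range, at a difference of 0.21 ± 0.14.

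**Figure D2:**
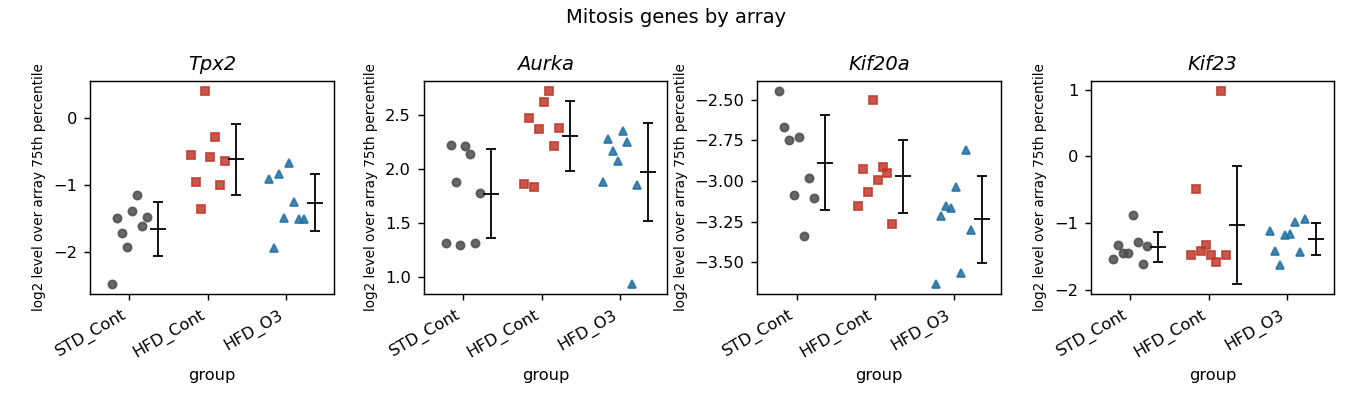
Levels of Tpx2, Aurka, Kif20a and Kif23 on each array (y, log2 over the array's 75th percentile) by group, with the mean and SD of 8 arrays beside the points. For Tpx2, 7 of 8 HFD_Cont arrays lie above every STD_Cont array; for Kif23, HFD_Cont array 7 at 0.98 stands apart from its group.

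The helicase genes varied little between mice of a group, with a within-group SD of 0.13 to 0.18 for the 5 tested, against 0.09 for Pcna at the low end of the set and 0.55 for Kif23 at the high end. Mcm3 ran from 0.86 to 1.21 in STD_Cont (median 0.96), from 0.46 to 0.85 in HFD_Cont (median 0.72) and from 0.57 to 0.94 in HFD_O3 (median 0.87). Every HFD_Cont array lay below every STD_Cont array, by a narrow margin of levels, and the HFD_O3 arrays overlapped both. The change was -0.30 ± 0.07 (SE, 95% interval -0.44 to -0.16, n = 8 and 8, limma adjusted p = 0.0193), or 1.23-fold. All 4 Mcm3 probes gave the same sign, with changes of -0.30, -0.26, -0.25 and -0.24, of which the first alone passed when every probe was adjusted for (the others at 0.329, 0.0841 and 0.0894).

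Mcm7 ran from 1.79 to 2.07 in STD_Cont (median 1.91), from 1.52 to 1.72 in HFD_Cont (median 1.60) and from 1.31 to 2.14 in HFD_O3 (median 1.72). Again no HFD_Cont array reached the lowest STD_Cont array, while HFD_O3 spanned both groups. The change was -0.31 ± 0.08 (95% interval -0.48 to -0.14, limma adjusted p = 0.041), or 1.24-fold. Mcm3 and Mcm7 were the 2 genes of the 21 whose groups did not overlap, and 1.14% of all names had groups that did not overlap in this comparison.

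Both helicase changes were of like size on every slide, at -0.25, -0.33 and -0.33 for Mcm3 and -0.30, -0.31 and -0.28 for Mcm7. The Mcm3 call was kept in 24 of 24 fits with 1 array left out, the Mcm7 call in 11 of 24 (adjusted p 0.0111 to 0.0848). Median scaling ended both calls (adjusted p 0.0615 and 0.115, at changes of -0.30 and -0.31), as did slide and row as a block (0.114 and 0.152) and testing all names without a filter (0.0585 and 0.109), within 0.00619 to 0.727 and 0.00222 to 0.723 over all alternatives. Normexp background correction ended the Mcm7 call (0.0528) and kept the Mcm3 call (0.0287). With the adipocyte marker score as a covariate Mcm3 stood at an adjusted p of 0.0314 and Mcm7 at an adjusted p of 0.0769, and with the replicate number as a block at 0.0595.

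The other helicase genes did not pass. Mcm2 and Mcm4 differed by -0.13 ± 0.09 and -0.13 ± 0.08, and Mcm6 by 0.11 ± 0.09. Thus 4 of the 5 measured helicase genes had a negative difference and Mcm6 a positive one, under each of the 4 scalings tried. The largest Mcm6 level in STD_Cont, 0.995 on array 7, and the lowest Mcm2 level in STD_Cont, -0.74, were on the same array.

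Pcna ran from 3.08 to 3.30 in STD_Cont (median 3.19), from 2.96 to 3.23 in HFD_Cont (median 3.06) and from 3.04 to 3.39 in HFD_O3 (median 3.13). The groups overlapped within a narrow band, and the difference of -0.13 ± 0.05 (limma adjusted p = 0.2) did not pass. Rrm2, the small subunit of ribonucleotide reductase, ran from -1.48 to -0.12 in STD_Cont (median -0.84), from -1.79 to -0.80 in HFD_Cont (median -1.37) and from -1.46 to -1.17 in HFD_O3 (median -1.38). Its difference of -0.42 ± 0.16 (limma adjusted p = 0.179) did not pass and was uneven over slides, at 0.25, -0.70 and -0.72. With normexp background correction it was -0.25. Tyms, thymidylate synthase, differed by 0.06 ± 0.17.

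**Figure D3:**
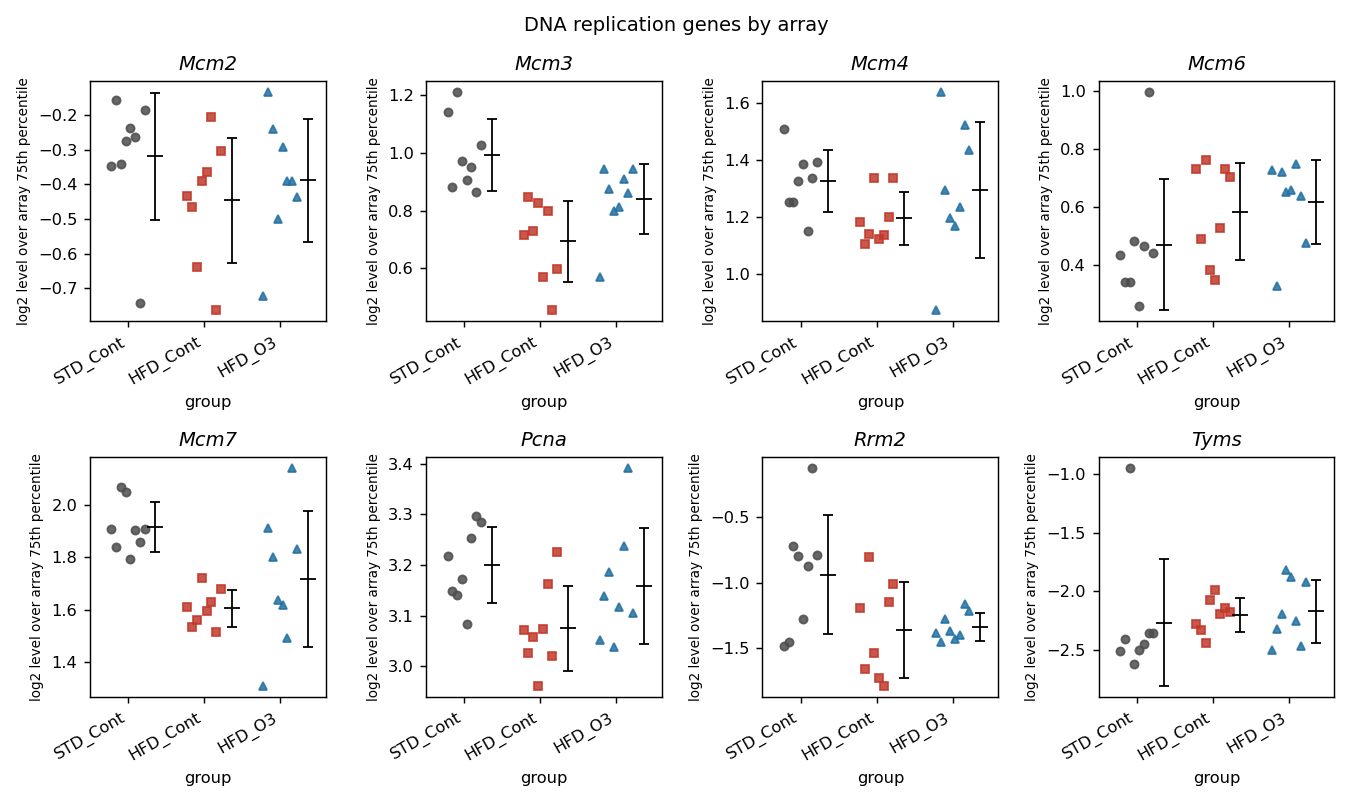
Levels of the 8 tested replication genes on each array (y, log2 over the array's 75th percentile; the y ranges differ) by group, with the mean and SD of 8 arrays beside the points. HFD_Cont lies wholly below STD_Cont for Mcm3 and Mcm7 and overlaps it for the other 6 genes.

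HFD_O3 against HFD_Cont compared the omega 3 with the control lineage on the high fat diet. None of the 21 genes passed (0 higher, 0 lower, smallest limma adjusted p 0.598), as 0 of the 19937 names did (0%). At an unadjusted p under 0.05 stood 3 of 21, beside 7.08% of all names. The median difference was 0.023, beside -0.014 over all names. HFD_Cont arrays enter this comparison as well as the one above, so differences of opposite sign in the 2 are not independent.

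Tpx2 was at -0.65 ± 0.22 (95% interval -1.10 to -0.20, limma adjusted p = 0.598) in this comparison, with all 8 HFD_O3 arrays below the HFD_Cont median but overlapping ranges. White adipocyte markers had a median change of -1.13 here, with 0 of 8 passing. Aurka was at -0.34 ± 0.19, again with all 8 arrays below the HFD_Cont median. Kif20a ran from -3.34 to -2.45 in STD_Cont (median -2.86), from -3.27 to -2.50 in HFD_Cont (median -2.97) and from -3.64 to -2.81 in HFD_O3 (median -3.19). Its difference was -0.26 ± 0.13 (limma adjusted p = 0.699), near the background limit, since it was above background on 6 HFD_O3 arrays. With normexp background correction Kif20a was at -0.027 and Tpx2 at -0.40. Over the 21 genes, 12 differences were positive and 9 negative. The 4 tested spindle genes and the 4 tested kinase and passenger genes were among the negative, from -0.65 to -0.20 and from -0.34 to -0.09. With normexp background correction this did not hold for Prc1 (0) and Cdca8 (0.001), and Plk1 was at -0.005. Prc1 passed the filter only through HFD_Cont, and Plk1 only through STD_Cont and HFD_Cont. The filter thus favours a lower HFD_O3 level for Prc1 and Plk1, and their signs add no support. With 1 array left out the Prc1 difference reached -0.049.

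The 5 helicase genes had positive differences, under each of the 4 scalings, from 0.03 for Mcm6 to 0.14 ± 0.07 for Mcm3 (limma adjusted p = 0.676). Of the 8 HFD_O3 arrays, 7 lay above the HFD_Cont median for Mcm3 and for Mcm4. Pcna was at 0.08 ± 0.05 (95% interval -0.02 to 0.19). None of these passed, and the intervals for Mcm2, Mcm4, Mcm6 and Mcm7 all included 0. Rrm2 was at 0.02 ± 0.16 and Mki67 at 0.11 ± 0.17.

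HFD_O3 against STD_Cont set both the diet and the lineage against the low fat control, and shares its groups with the comparisons above. Again 0 of the 21 genes passed (smallest limma adjusted p 0.258), where 0.597% of all names did, and 4 stood at an unadjusted p under 0.05 beside 11.2% of all names. The median was -0.059, beside -0.015 over all names. Tpx2 was at 0.39 ± 0.22 (95% interval -0.06 to 0.85) with 7 of 8 HFD_O3 arrays above the STD_Cont median. Mcm3 was at -0.15 ± 0.07 with all 8 below it, and Mcm7 at -0.20 ± 0.08 with 6 of 8 below it. Rrm2 was at -0.40 ± 0.16 with all 8 below it, and Kif20a at -0.35 ± 0.13 with 7 of 8 below it. With normexp background correction Kif20a was at -0.016 and Rrm2 at -0.23. The order of the group means of Tpx2 was thus STD_Cont, HFD_O3 and HFD_Cont from low to high, at -1.66, -1.27 and -0.62, and for Mcm3 the reverse, at 0.99, 0.84 and 0.69. For both genes only the ends of that order passed the test.

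**Figure D4:**
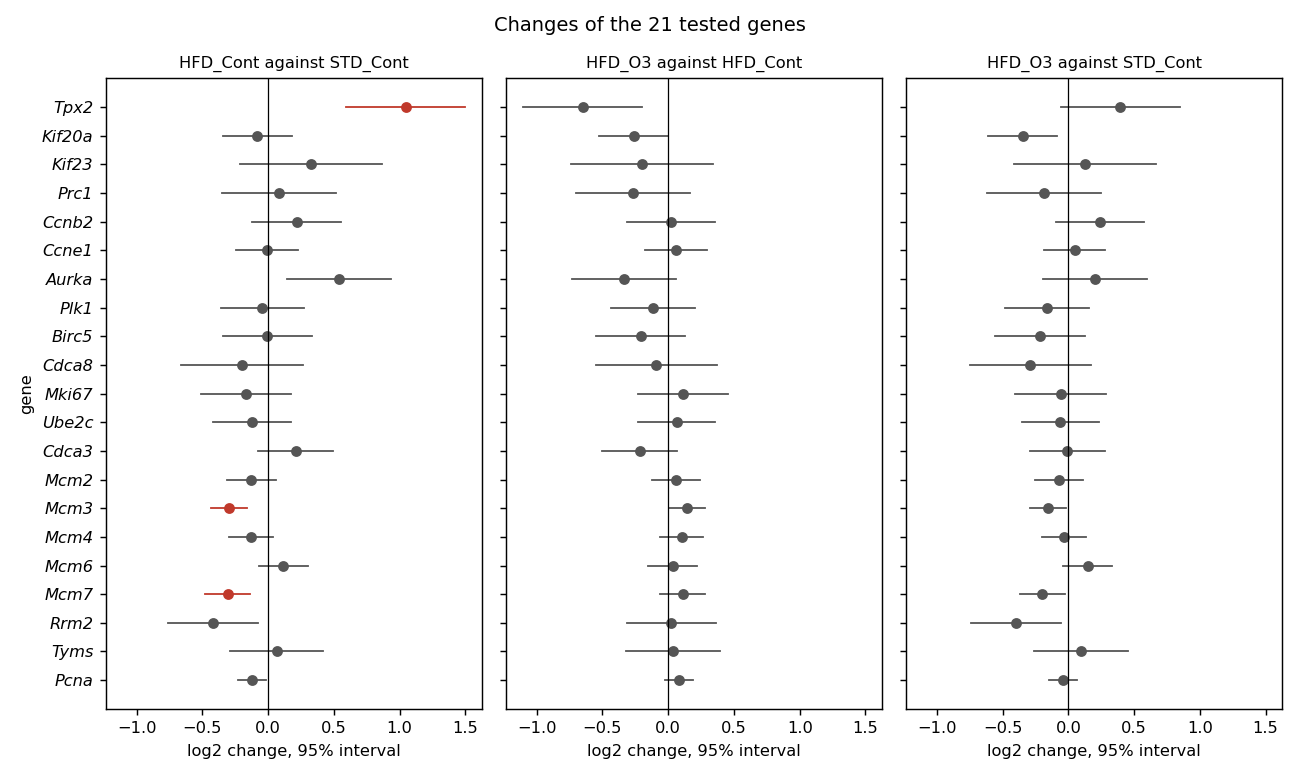
Change of each of the 21 tested genes (x, log2 difference of group means with its 95% interval) in the 3 comparisons; red marks an adjusted p under 0.05. Tpx2 to the right and Mcm3 and Mcm7 to the left in HFD_Cont against STD_Cont are the 3 that passed, and 0 passed in the other panels.

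Other genes of the same pathways were counted in HFD_Cont against STD_Cont, where 2.91% of all names passed. Of 60 further names of mitosis genes 31 were tested and 1 passed, the condensin subunit Smc4, at -0.35 ± 0.07 (limma adjusted p = 0.0174). Their median change was -0.062. Of 51 further replication genes 48 were tested, with 1 higher and 2 lower and a median of -0.056. Dut, which clears dUTP, was higher by 0.23 (adjusted p = 0.0411), and the origin recognition subunit Orc6 and the polymerase subunit Pole were lower, at -0.27 (0.0395) and -0.35 (0.0448). Smc4 kept its call in 24 of 24 fits with 1 array left out, while Dut, Orc6 and Pole kept it in 12, 11 and 10 of them.

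Of 26 genes that control cell cycle transcription, among them E2F, Rb, DREAM and NF-Y genes, 23 were tested and 0 passed, with a median of 0.012. The smallest p values were those of Mycn, at 0.46 ± 0.14 (limma adjusted p = 0.0738), and the pocket protein Rbl2, at -0.30 ± 0.10 (adjusted p = 0.0925). Of 20 further cyclins, Cdks and inhibitors 17 were tested, with 3 higher and 1 lower and a median of 0.109. The D-type cyclins, which act in early G1, were the 3 that rose, Ccnd1 by 1.11, Ccnd2 by 0.61 and Ccnd3 by 0.28, and the Cdk inhibitor Cdkn1a fell by 1.28 (limma adjusted p = 0.0103, 0.0133, 0.033 and 0.0157). Ccnd3 kept its call in 15 of 24 fits with 1 array left out, and the other 3 genes in 24 of 24. Beside these, 1 of the 21 tested mitosis and replication genes was higher.

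In HFD_O3 against HFD_Cont 0 genes of these 4 lists passed, as 0% of all names did. In HFD_O3 against STD_Cont 1 gene did, of lists with 31, 48, 23 and 17 tested genes, where 0.597% of all names passed. It was Slbp, the histone mRNA stem-loop binding protein, at -0.46 ± 0.10 (limma adjusted p = 0.0401). Its call was kept in 15 of 24 fits with 1 array left out (adjusted p up to 0.087). Markers of satellite cells, the largely quiescent stem cells of muscle that divide when activated, were measured in 8 of 9 cases with 0 passing and a median of 0.071 in HFD_Cont against STD_Cont, and macrophage markers in 8 of 8 with 0 passing and a median of -0.036. Of 8 endothelial markers 1 passed in HFD_Cont against STD_Cont, Kdr, higher by 0.45 (limma adjusted p = 0.021), while the median of the 8 was -0.013. The fibro-adipogenic, lymphocyte, erythroid, Schwann cell and pericyte lists had 0 genes passing in any comparison.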

How the data were processed

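The authors' deposited scanner files, read with Agilent Feature Extraction 10.10.1.1 per the file headers, hold spot intensity. Per the labels, 200 ng of RNA was labelled with Cy3 by sample. Spots with an outlier flag (0.135%) were dropped and replicate spots averaged. From log2 of the processed intensity the array's own 75th percentile was subtracted. Probes well above background on 6 of 8 arrays of a group were kept (29245 of 56605), the brightest standing for each of 19937 names. RefSeq accessions named 32994 probes, the array design the others. Groups were compared with limma 3.58.1 in R 4.3.3 on all 24 arrays, with no block. The authors' deposited log2 table of 30124 probes, for which the submitters' notes name limma, was an alternative. It tracked the log2 median spot signal (correlation at least 0.9996 in 24 of 24 columns), with column medians of 7.69 to 7.7. Its probe filter is not given in the sources used here.

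Genes with an unadjusted p under 0.05, or of the highest mean in a role, are described by group, and list genes where they passed, otherwise the 2 of smallest p. Members and lists were chosen with earlier results of these data known. The fit was tested on simulated data. Replicate numbers did not pair samples. Slide and array row, the adipocyte score as a covariate, and leaving out HFD_O3 arrays 1 and 7 or the 8 adipocyte-rich arrays were added after the data had been seen. Figures were drawn with matplotlib.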

Additional observations from a re-analysis of the deposited data

Results flagged for a closer look

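Single arrays stood apart from the other 7 of their group in 10 of the 63 groups examined (21 genes in 3 groups), where the gap to the nearest array, over the group's range, was above Dixon's critical value. Chance flags about 1 in 20 groups. In the STD_Cont group, array 3 was high for Tyms at -0.94 (the nearest other array at -2.35) and for Cdca8 at -1.74, array 5 was high for Kif23 at -0.87, and array 7 was low for Mcm2 at -0.74 and high for Mcm6 at 0.995. In HFD_Cont, array 4 was high for Kif20a at -2.50 and array 7 for Kif23 at 0.98 (the nearest other array at -0.49). In HFD_O3, array 1 was low for Mcm3 at 0.57, array 5 for Prc1 at -5.06 and array 7 for Aurka at 0.93. Leaving out HFD_O3 arrays 1 and 7 together gave 4 genes past the threshold in HFD_Cont against STD_Cont, Tpx2, Aurka, Mcm3 and Mcm7, and 0 in the other comparisons. The cause of these single values was not tested.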

How the results depend on the processing

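In HFD_Cont against STD_Cont the count of genes past the threshold was 3. It was 2, Tpx2 and Mcm3, with normexp background correction (405 of all names) and with the adipocyte score as a covariate (362 of all names). It was 1, Tpx2, with median scaling and without the filter, and 0 with slide and row as a block and without the 8 adipocyte-rich arrays, and 2 to 4 with 1 array left out. Over all names the 581 calls became 177, 135, 73 and 0 in those 4 fits, 1166 with only the 2 groups fitted, 1254 with array weights and 1238 without HFD_O3 arrays 1 and 7. The cause of these shifts was not tested. The fit without the filter also covered more names (37325), and the fit without the 8 adipocyte-rich arrays had fewer arrays. The member median was 0.059 on slide 1 alone and -0.106 to -0.01 with 1 array left out. In HFD_O3 against HFD_Cont the median was -0.09 without the filter, which adds the 12 dim genes, and -0.03 to 0.036 with 1 array left out. Counts stayed at 0 in both HFD_O3 comparisons under these alternatives, and the HFD_O3 against STD_Cont median ran from -0.122 to 0.002 over all alternatives and from -0.089 to -0.022 with 1 array left out. With normexp it was 0.002, with 11 genes positive and 10 negative (7 and 14 as reported), and in HFD_Cont against STD_Cont -0.008, with 10 and 11. Directions turned within single slides where the unadjusted p was under 0.05 for Rrm2 on slide 1 (0.25 in HFD_Cont and 0.097 in HFD_O3 against STD_Cont) and, in HFD_O3 against STD_Cont on slide 3, for Kif20a (0.086) and Mcm7 (0.096). They also turned for differences with a larger p, among them Aurka in HFD_O3 on slide 1 against HFD_Cont (0.052) and on slide 3 against STD_Cont (-0.35), Tpx2 in HFD_O3 against STD_Cont on slide 3 (-0.083), Mcm7 in HFD_O3 against HFD_Cont on slide 2 (-0.077) and Kif20a in HFD_Cont against STD_Cont on slides 2 and 3 (0.104 and 0.10). Fitted with the replicate number as a block, 3 genes passed, Tpx2, Aurka (adjusted p = 0.0395) and Mcm3, but the numbers did not pair arrays: 24 same-numbered pairs correlated at a mean of 0.0612 (-0.145 to 0.365), and 6 of 24 arrays matched their own number best. With the looser flag for signal over background 29 genes, not 21, would be tested. Signal over background limits what can be said of the 12 untested genes and of Prc1, Plk1, Ube2c, Ccnb2 and Kif20a.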
